A study of Mus musculus with 12 samples.

Results

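The immunoglobulin loci Igh, Igk and Igl hold the gene segments from which B cells build antibody chains. Their probes were chosen by position in mouse build mm9, as all array probes that were not controls within Igh on chromosome 12 (114376131 to 117285162), Igk on chromosome 6 (67444505 to 70710392) and Igl on chromosome 16 (18989503 to 19653078). This gave 370 of the 170305 probes on the array, of which 182 lay in Igh, 142 in Igk and 46 in Igl. The median distance between neighbouring probes was 10.35 kb in Igh, 15.47 kb in Igk and 10.9 kb in Igl, so a change smaller than a few such distances could not be resolved.

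A B cell joins a V, a D and a J segment at Igh and a V and a J segment at Igk or Igl, and the DNA between joined segments is usually cut out. At Igk many V segments lie in the opposite orientation to J, and joining them inverts the DNA and keeps it. Class switching later deletes DNA between Igh constant genes. T cells rearrange the T cell receptor loci, and Igh can be partly rearranged in some of them.

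Genomic DNA of 8 malignant lymphomas (ML) and 4 renal cell carcinomas (RCC) of C57BL/6 mice was compared with DNA of normal C57BL/6 kidney on 2-colour arrays for comparative genomic hybridisation, 1 array per tumour. Tumour DNA carried Cy5 and kidney DNA Cy3, without a dye swap. Mice were either knockouts (KO) for Mutyh, a repair enzyme that cuts out adenine placed opposite oxidised guanine, or wild type (WT). The labels name no promoter, clone or pooling. The lymphomas were KO1077 and KO1111 (KO, Fe-NTA), WT1113, WT1114 and WT1121 (WT, Fe-NTA), KO1414 (KO, untreated), and WT1405 and WT1420 (WT, untreated). The carcinomas were KO1080, KO1097 and KO1134 (KO) and WT1179 (WT), all after Fe-NTA. Fe-NTA is ferric nitrilotriacetate, an iron chelate that damages the kidney tubule by oxidation. Treated groups began with 20 male mice each, given 5 abdominal injections weekly over 12 weeks, the dose being 3 mg of iron per kg at first (week 1) and 5 mg per kg in the 11 weeks after that. Mice were killed at about 120 weeks.

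A value is the log2 ratio of tumour over kidney DNA at a probe, minus the array's median over the rest of that chromosome. A value of -1 is what loss of 1 of 2 copies in every cell would give. In bulk DNA, a loss in fewer cells and a smaller loss per cell cannot be told apart. The carcinomas lay on slide 1 and the lymphomas on slides 2 and 3, so slide and tumour type cannot be told apart. Relative to the autosomal median, chromosome 12 itself had a median of -0.09 to 0.17 in the lymphomas, against -0.40, -0.62, -0.18 and -0.73 in carcinomas KO1080, KO1097, KO1134 and WT1179. Values at Igh are therefore relative to a chromosome that was itself low in the carcinomas. Lymphomas WT1113 and WT1114, on the same slide, had profiles that correlated at 0.753 over 2393 bins of 1 Mb outside the loci, against -0.115 to 0.595 in the other 27 lymphoma pairs. They may not be independent, and results that change when they are averaged are given below. The p-values measure only the spread between these tumours.

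The files mark no boundary of a constant, J, D or V part in mm9, and the annotation at hand belongs to another build, so profiles are given by probe position. The order of genes in that annotation (RefSeq, GRCm38) was used for direction alone. From Mta1 towards Igh it lists Tedc1 and Tmem121, then the constant genes Igha, Ighe, Ighg2c, Ighg2b, Ighg1, Ighg3, Ighd and Ighm, then the J, D and V segments up to Zfp386. At Igk the V segments begin at the Il23r side, and Igkj5 and Igkc are followed by Rpia. At Igl the order from Hira is Iglc1, Iglj1, Iglc3, Iglj3, Iglv1, Iglc4, Iglc2, Iglj2, Iglv3 and Iglv2, followed by olfactory receptor genes up to Lamp3. Most Igh probes carry the array name AK136471, which has no gene symbol here.

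The probes below are shown because the losses begin or end between them or because they held the highest and lowest values. They are printed 5′ to 3′ as the array files give them, and the strand is not stated. The first pair flanks the Igh end shared by 5 lymphomas, and the next 4 lie around the highest value.
chr12:114499192-114499251: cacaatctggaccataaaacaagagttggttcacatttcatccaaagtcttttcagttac
chr12:114506215-114506274: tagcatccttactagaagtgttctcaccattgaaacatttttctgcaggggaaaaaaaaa
chr12:114655091-114655148: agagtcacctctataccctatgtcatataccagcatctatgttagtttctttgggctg
chr12:114664510-114664569: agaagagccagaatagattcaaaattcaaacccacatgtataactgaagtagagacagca
chr12:114670169-114670228: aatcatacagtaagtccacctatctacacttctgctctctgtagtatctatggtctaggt
chr12:114676626-114676685: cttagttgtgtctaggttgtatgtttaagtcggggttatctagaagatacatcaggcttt
The next pair flanks the Igk end shared by 5 lymphomas.
chr6:70671167-70671226: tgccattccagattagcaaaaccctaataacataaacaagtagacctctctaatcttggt
chr6:70677978-70678037: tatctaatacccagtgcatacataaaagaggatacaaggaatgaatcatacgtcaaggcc

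Igh was lower in lymphomas than in carcinomas, with no overlap. Its mean over 182 probes was -0.47 in KO1414, -0.37 in WT1121, -0.33 in KO1111, -0.22 in WT1420, -0.21 in KO1077, -0.17 in WT1113, -0.14 in WT1114 and -0.036 in WT1405. In carcinomas it was 0.022 in KO1080, 0.041 in WT1179, 0.044 in KO1097 and 0.252 in KO1134. The lymphomas averaged -0.24 ± 0.14 (SD, n = 8) and the carcinomas 0.09 ± 0.11 (SD, n = 4). The difference of -0.33 gave p = 0.00404 in a two-sided exact permutation test, the least that 495 splits permit, or 0.0121 when adjusted over 3 loci. Centred on the 2 Mb on each side of the locus in place of the chromosome, KO1134 read -8e-05 and the difference was -0.28. Centred on the autosomal median, where the chromosome 12 medians of the carcinomas count, the sign turned: the difference was 0.16, with an exact permutation p of 0.226.

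Igk was lower as well, with 1 lymphoma inside the range of the carcinomas. The means over its 142 probes were -0.34 in KO1077, -0.33 in WT1113, -0.29 in WT1121, -0.24 in KO1414, -0.24 in WT1114, -0.16 in WT1420, -0.081 in WT1405 and -0.065 in KO1111. In carcinomas they ran from -0.067 to 0.003. The groups averaged -0.22 ± 0.11 (SD, n = 8) in lymphomas and -0.028 ± 0.032 (SD, n = 4) in carcinomas, a difference of -0.19 (exact permutation p = 0.00808, adjusted p = 0.0121). Centred on the autosomal median the difference was -0.18, with an exact permutation p of 0.194. WT1405 then read 0.35, since its chromosome 6 had a median of 0.43.

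Igl stood apart from both. Its 46 probes averaged 0.011 ± 0.040 (SD, n = 8) in lymphomas and -0.038 ± 0.020 (SD, n = 4) in carcinomas. The difference of 0.050 (exact permutation p = 0.0485, adjusted p = 0.0485) did not pass with WT1113 and WT1114 averaged (0.043, adjusted exact p of 0.0727). Lymphomas lay between -0.039 and 0.059 and carcinomas between -0.058 and -0.013, so the ranges overlapped.

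**Figure D1:**
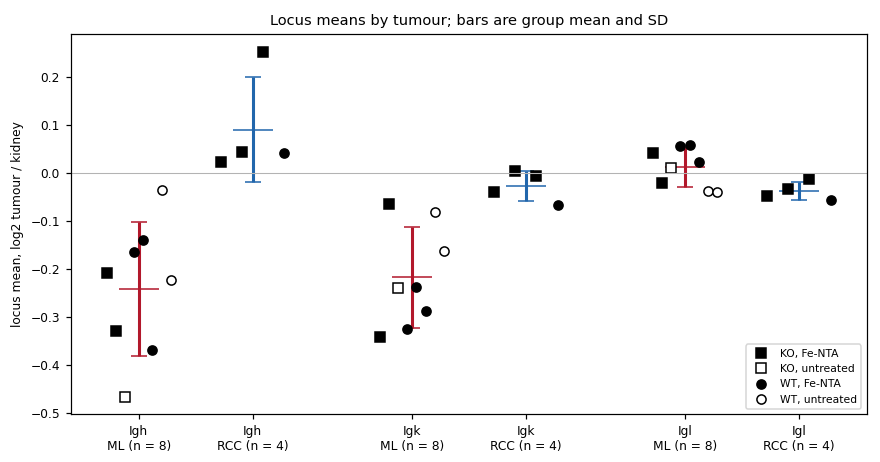
Mean log2 ratio of tumour over kidney over the probes of each locus, for 8 ML and 4 RCC, with the group mean and SD as bars. Squares are KO and circles WT, filled for Fe-NTA and open for untreated. Igh lies below every RCC in all 8 ML, and Igl lies near 0 in both groups.

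Within lymphomas, each locus was set against the others on the same array. Igh minus Igl averaged -0.25 ± 0.14 (SD, n = 8) and was negative in 7 of 8 tumours, in an exact sign-flip permutation test (p = 0.0156, adjusted p = 0.0312). Igk minus Igl averaged -0.23 ± 0.14 (SD, n = 8), negative in 8 of 8 (exact permutation p = 0.00781, adjusted p = 0.0312). With WT1113 and WT1114 averaged, both had an adjusted exact p of 0.0625. Igh minus Igk averaged -0.024 ± 0.161 (SD, n = 8), with an exact permutation p of 0.672, and was negative in 4 of 8. The T cell receptor locus Tcra/Tcrd, read by 78 probes between Olfr1507 and Dad1 on chromosome 14, was also low. It read from -0.37 to -0.059 in lymphomas and from -0.043 to 0.114 in carcinomas. Igh minus Tcra/Tcrd averaged -0.022 ± 0.123 (SD, n = 8), with an exact permutation p of 0.617.

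The 3 lymphomas of knockouts were set against the 5 of wild types, since the study compared the genotypes. Igh averaged -0.33 ± 0.13 (SD, n = 3) in KO lymphomas and -0.19 ± 0.12 (SD, n = 5) in WT lymphomas, a difference of -0.15 with an exact permutation p of 0.179. Igk averaged -0.22 ± 0.14 in KO and -0.22 ± 0.10 in WT lymphomas. Igl averaged 0.010 ± 0.031 in KO and 0.012 ± 0.049 in WT lymphomas. The smallest p that 56 splits allow is 0.0357. Igh averaged -0.24 ± 0.10 (SD, n = 5) in Fe-NTA lymphomas and -0.24 ± 0.22 (SD, n = 3) in untreated lymphomas. Igk averaged -0.25 ± 0.11 in Fe-NTA lymphomas and -0.16 ± 0.08 in untreated lymphomas, with an exact permutation p of 0.321. Igl averaged 0.032 ± 0.033 in Fe-NTA lymphomas and -0.022 ± 0.028 in untreated lymphomas, with an exact permutation p of 0.0714. No genotype or treatment difference passed the test. With adjustment over 3 loci, a pass needed all 3 loci at 0.0357 together, so the test could not settle whether such differences exist.

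The profile along Igh placed the loss in the stretches nearest the constant genes. The 12 probes before the first one named AK136471, on the Mta1 side, averaged -0.030 ± 0.065 (SD, n = 8) in lymphomas and 0.043 ± 0.109 (SD, n = 4) in carcinomas, and did not differ by the test (exact permutation p of 0.186). The rest of Igh was divided into 6 stretches of equal length, numbered from that side. Stretch 1, with 40 probes, averaged -0.44 ± 0.27 in lymphomas and 0.13 ± 0.09 in carcinomas, and stretch 2, with 38 probes, -0.45 ± 0.30 in lymphomas and 0.053 ± 0.122 in carcinomas. Both had an adjusted exact permutation p of 0.0108 over 16 stretches, and in both every lymphoma lay below every carcinoma. Stretch 3, with 43 probes, averaged -0.17 ± 0.18 in lymphomas and 0.057 ± 0.132 in carcinomas, with an adjusted exact p of 0.0646.

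Stretches 4, 5 and 6 also passed the test, with the lymphomas close to 0. Stretch 4 averaged -0.040 ± 0.041 (SD, n = 8) in lymphomas and 0.12 ± 0.09 (SD, n = 4) in carcinomas. Stretch 5, which holds 7 probes, averaged -0.032 ± 0.029 in lymphomas and 0.16 ± 0.08 in carcinomas. Stretch 6 averaged -0.033 ± 0.026 in lymphomas and 0.11 ± 0.10 in carcinomas. In these stretches the carcinomas lay further from 0 than the lymphomas, and the part that slide 1 and the low chromosome 12 of the carcinomas play in it was not tested. In KO1414 stretch 1 read -0.83 and stretch 2 -0.91. In WT1121 they read -0.83 and -0.86.

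Along Igk, numbered from the Rpia side, stretches 1, 2, 3 and 5 passed. They averaged -0.24 ± 0.10, -0.27 ± 0.15, -0.26 ± 0.12 and -0.19 ± 0.11 (SD, n = 8) in lymphomas, against -0.0005 ± 0.0455, -0.011 ± 0.058, -0.034 ± 0.045 and -0.032 ± 0.031 (SD, n = 4) in carcinomas. Their adjusted exact permutation p-values lay between 0.0108 and 0.0216. Stretch 4 averaged -0.28 ± 0.19 in lymphomas and -0.056 ± 0.024 in carcinomas, with an adjusted exact p of 0.0746. Stretch 6, at the Il23r end, averaged -0.067 ± 0.060 in lymphomas and -0.046 ± 0.045 in carcinomas, and its difference of -0.021 had an exact permutation p of 0.570. At Igl, 1 of 3 stretches passed, the one nearest Lamp3, at 0.024 ± 0.022 in lymphomas and -0.022 ± 0.026 in carcinomas, with an adjusted exact p of 0.0259.

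**Figure D2:**
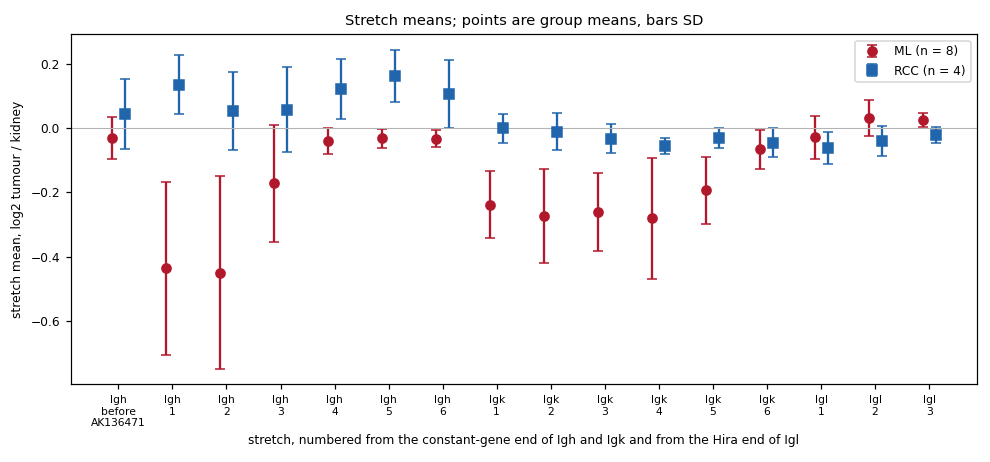
Mean log2 ratio of tumour over kidney by stretch, for ML (n = 8) and RCC (n = 4), with SD as bars. Stretches are numbered from the constant-gene end of Igh and Igk and from the Hira end of Igl. ML are lowest in stretches 1 and 2 of Igh and in stretches 1 to 4 of Igk.

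Probe by probe, 36 of the 182 Igh probes were lower in lymphomas by limma at an adjusted p under 0.05, and 0 were higher. Not all of these are losses in the lymphomas. The probe with the lowest limma adjusted p (1.99e-05), at 116568845, lay beyond the far end of every loss described below. There the lymphomas averaged -0.027 and the carcinomas 0.45. Over all 161459 autosomal probes tested 1.71% were called lower and 0.806% higher. At Igk 22 of 142 probes were lower and 0 higher, and at Igl 1 of 46 was lower and 1 higher. Every lymphoma lay below every carcinoma at 48 Igh probes, 25 Igk probes and 1 Igl probe, against 2.95% of the 161102 autosomal probes measured in every tumour. The probe at 116568845 is among these 48 as well. With slide as a random block 5 Igh probes (2.75%), 0 Igk probes and 0 Igl probes were called lower by limma, against 0.151% of all autosomal probes. In that fit 0 probes of the loci were called higher, against 0.0731% of all. At an unadjusted limma p under 0.05 there, 77 of 182 Igh, 58 of 142 Igk and 1 of 46 Igl probes were lower. Over all 161459 autosomal probes 7376 were lower at that threshold. With values centred on the autosomal median the Igh calls turned: 1 probe was lower and 28 (15.4%) were higher, against 1.49% of all probes called lower and 9.89% called higher. At Igk 5 were then lower and 0 higher, and at Igl 0 were lower and 2 higher.

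The lowest probe of Igh stood 12 kb beyond the highest, at 114676626. It read -1.72 in WT1113, -1.46 in WT1121, -1.26 in KO1414, -1.19 in WT1114, -0.88 in KO1111, -0.84 in WT1420, -0.72 in KO1077 and -0.16 in WT1405. In carcinomas it lay between -0.083 and 0.178. The difference was -1.06 ± 0.22 (SE), with a limma adjusted p of 0.0219. Among the Igh probes called, the next lowest differences were those of the probes at 114683474 (-0.93 ± 0.17), 114670169 (-0.86 ± 0.10), 114711944 (-0.80 ± 0.14) and 114723609 (-0.76 ± 0.15), with limma adjusted p-values between 0.000607 and 0.0175. At 114670169 the carcinomas lay between 0.40 and 0.50, so part of its difference is their height above 0. The same holds at 114723609, where carcinomas averaged 0.49 and lymphomas -0.26, and at 114711944, where they averaged 0.27 and -0.52. Among the Igk probes called, the lowest differences were at 70373153 (-0.52 ± 0.07), 70482855 (-0.46 ± 0.08), 69448478 (-0.45 ± 0.09), 68569720 (-0.44 ± 0.10) and 68913097 (-0.38 ± 0.08), with limma adjusted p-values of 0.00202 to 0.0432. At Igl the probe at 19603020 was lower by limma, with a difference of -0.26 ± 0.05 and an adjusted p of 0.0146, and the one at 19529603 had a difference of 0.17 ± 0.04 (limma adjusted p = 0.0413).

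Segmentation of each chromosome gave the ends and depth of each loss. A segment was called lost at a mean of -0.25 or lower over at least 5 probes. Igh was lost in 7 of 8 lymphomas and 0 of 4 carcinomas, and Igk in 5 of 8 and 0 of 4. Igl was lost in 0 tumours. Relative to the autosomal median, Igh was lost in 7 of 8 lymphomas and 3 of 4 carcinomas, Igk in 5 of 8 and 0 of 4, and Igl in 0 of 8 and 1 of 4. The loss then covered the whole window of 2909 kb in carcinomas KO1080, KO1097 and WT1179. Without WT1113 and WT1114, Igh was lost in 5 of 6 lymphomas and Igk in 3 of 6. Lost sequence at Igh came to 983 ± 492 kb (SD, n = 8) in lymphomas and 0 kb in each carcinoma, in an exact permutation test (p = 0.0202, adjusted p = 0.0606). At Igk it came to 1619 ± 1360 kb in lymphomas and 0 kb in each carcinoma, with an exact permutation p of 0.141. Both Igh and Igk were lost in KO1077, KO1414, WT1113, WT1114 and WT1121. Igh was lost without a called Igk loss in KO1111 and WT1420, and neither locus was lost in WT1405.

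**Figure D3:**
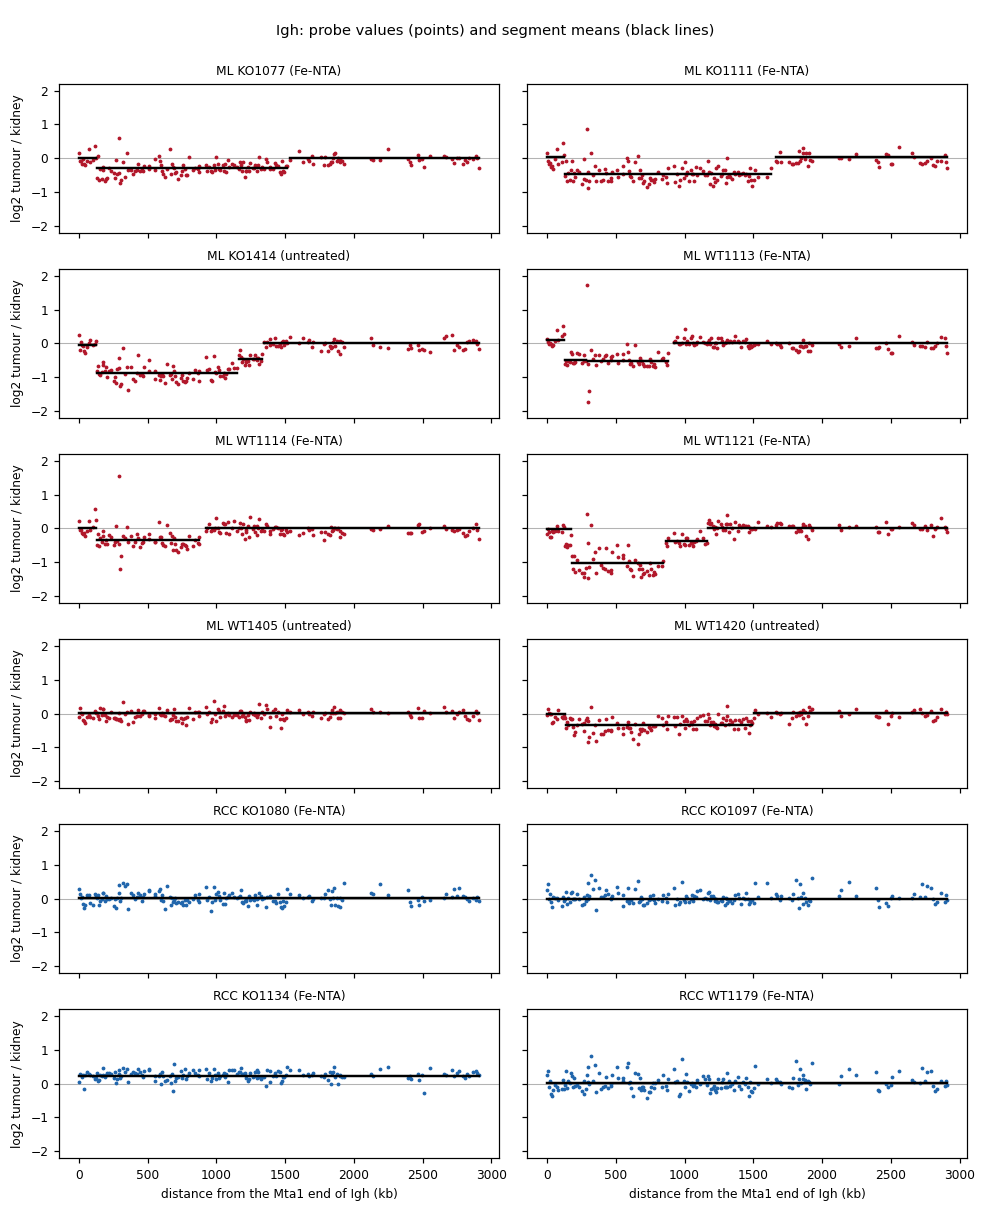
Igh in each tumour: points are probes, black lines segment means, the x axis is the distance from the Mta1 end in kb and the y axis the log2 ratio of tumour over kidney. Losses begin at about the same place in 7 of 8 ML and end at different places, and WT1405 and the 4 RCC have no lost segment.

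The end nearest the constant genes recurred. In KO1077, KO1111, KO1414, WT1113 and WT1114 the loss began between the probes at 114499251 and 114506215, a gap of 6.96 kb. In WT1420 it began 1 probe further, at 114512640. In WT1121 the called loss began at 114553987, but its 6 probes from 114506215 to 114547101 already averaged -0.45. Those 6 probes averaged 0.008 in WT1405 and 0.001 to 0.204 in the carcinomas. The 13 probes before this end lay between -0.079 and 0.12 in lymphomas and between -0.055 and 0.197 in carcinomas.

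The far ends differed between tumours. In WT1113 and WT1114 the loss ended between 115252236 and 115298666, the only far end that any tumours shared. It ended at 115536976 in WT1121, 115704911 in KO1414, 115868460 in WT1420, 115888837 in KO1077 and 116006179 in KO1111. Beyond 116043128 the 46 remaining probes averaged -0.076 to 0.014 in lymphomas and 0.042 to 0.254 in carcinomas.

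Depth also differed. WT1121 held the lowest segment, at -1.04 over 55 probes, followed by one at -0.38 over 24 probes. KO1414 read -0.87 over 84 probes and then -0.46 over 20 probes. WT1113 read -0.48 over 16 probes and -0.52 over 47 probes, on either side of a single high probe. KO1111 read -0.47 over 123 probes, WT1114 -0.34 over 64 probes, WT1420 -0.33 over 117 probes and KO1077 -0.30 over 120 probes. KO1414 was thus deeper towards the constant genes and shallower further out, while WT1121 was shallower on both sides of its lowest segment.

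The high probe, at 114664510, lay inside the lost stretch. It read 1.73 in WT1113, 1.54 in WT1114, 0.85 in KO1111, 0.61 in KO1077, 0.42 in WT1121, -0.13 in WT1420, -0.19 in WT1405 and -0.44 in KO1414, and between 0.11 and 0.30 in carcinomas. The neighbours at 114655091 and 114670169 read -0.52 and -0.61 in WT1113. In WT1113 it was the only autosomal probe to rise that far (2.25) above the higher of its neighbours, and in WT1114 there were 3 such probes at its rise of 1.90. The raw tumour signal was 2339 in WT1113 and 2115 in WT1114, against 485 to 533 in carcinomas, while the kidney signal was 499 and 476, against 397 to 541. The 4 highest tumours are the 4 arrays of slide 2. Of all autosomal probes 6.78% had all 4 arrays of slide 2 above the other 8, and at 1350 probes the gap was at least as large as the 0.19 here. The part of the slide in it was not tested.

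**Figure D4:**
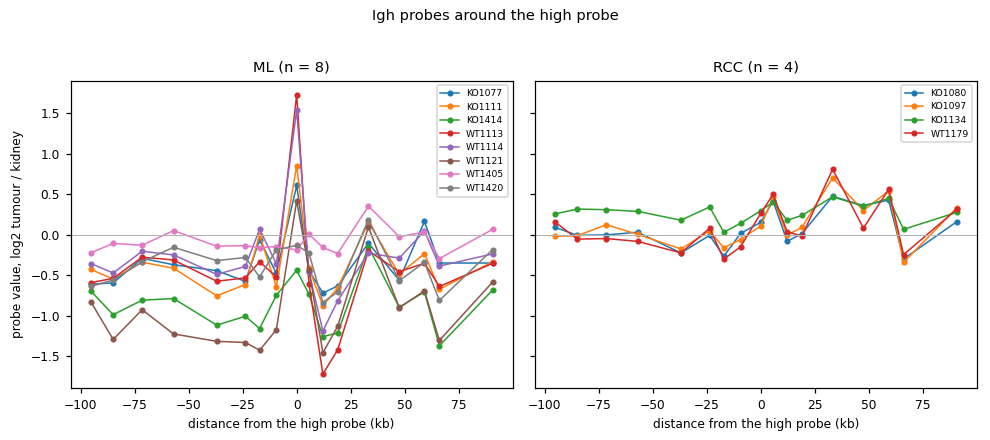
Log2 ratio of tumour over kidney at the Igh probes on both sides of the high probe, against the distance from it in kb, with ML on the left and RCC on the right. The probe stands at 1.73 in WT1113 and 1.54 in WT1114, between probes below 0.

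At Igk the near end was shared. In KO1414, WT1113, WT1114, WT1121 and WT1420 the low segment ended between the probes at 70671226 and 70677978, a gap of 6.75 kb on the Rpia side. In KO1077 it ended 1 probe further, at 70678037. The far end lay between 68186527 and 68214299 in WT1113, WT1121 and WT1420, 1 probe away in WT1114 (68186468) and KO1414 (68242011), and at 67552555 in KO1077. The far end of KO1077 depended on the setting. With the carcinoma mean of each probe subtracted, its lost length was 2510.1 kb in place of 3125.5 kb. The other tumours with a called loss then had 2456.9 to 2491.6 kb. KO1077 averaged -0.17 over the 34 probes before the shared far end, against -0.41 over the 104 probes inside it. The segment means were -0.45 in WT1113, -0.40 in WT1121, -0.37 in KO1077, -0.32 in WT1114 and -0.32 in KO1414. WT1420 had the same segment at -0.21, which is not called at the threshold of -0.25. Over the 104 probes between the shared ends KO1111 read -0.054 and WT1405 -0.079, against -0.065 to 0.001 in carcinomas.

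**Figure D5:**
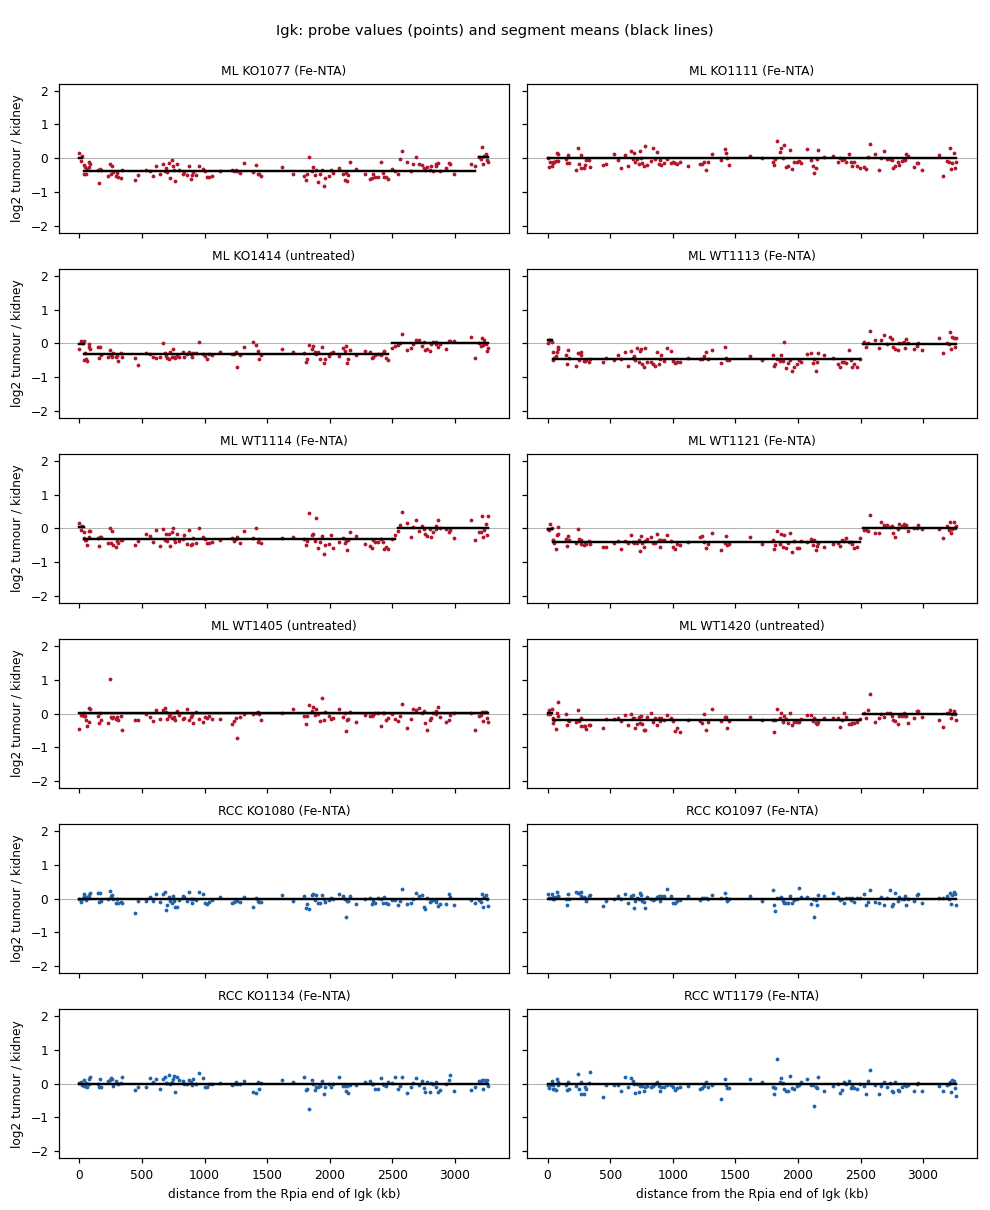
Igk in each tumour, drawn as for Igh, with the distance from the Rpia end in kb on the x axis. In 6 of 8 ML a low segment starts beside the Rpia end, and in 5 of them it stops near the same distance. In KO1077 the segment runs further at this setting. KO1111, WT1405 and the 4 RCC have no low segment.

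Probe values of lymphoma pairs, with the carcinoma mean of each probe subtracted, correlated at 0.916 for WT1113 and WT1114 at Igh, against 0.222 to 0.811 in the other 27 pairs. At Igk they correlated at 0.828, against 0.06 to 0.828, and at Igl at 0.903, against 0.22 to 0.864. The pairs share the array design and the kidney DNA, and probes of a locus are not independent. WT1113 and WT1114 also lay on the same slide. At Igl the other pairs of that slide correlated at 0.74 to 0.864, and pairs from different slides at 0.22 to 0.509. At Igh these ranges were 0.54 to 0.808 and 0.266 to 0.717, and at Igk 0.217 to 0.828 and 0.06 to 0.823. Pairs within the other lymphoma slide ran from 0.221 to 0.687 at Igl. The part of the slide in these correlations was not tested.

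Of the 28 genes of recombination and of the B lineage listed for comparison, 20 had probes under their symbol. By limma over 20294 genes, 1 of the 20 was higher and 0 lower, against 0.941% of all genes called higher and 1.49% called lower. At an unadjusted p under 0.05 there were 3 of the 20, and the share of all genes at that threshold was not counted. Of 161459 autosomal probes, 17149 were lower and 15805 higher by limma at an unadjusted p under 0.05. The list's median difference was 0.047, against 0.010 for all genes. Prkdc, which encodes the DNA-dependent protein kinase of end joining, read 0.096 ± 0.050 (SD, n = 8) in lymphomas and -0.040 ± 0.039 (SD, n = 4) in carcinomas. The difference was 0.14 ± 0.03 (SE), with a limma adjusted p of 0.047. Centred on the autosomal median, Prkdc did not pass (adjusted p of 0.137), and Pax5, a B cell transcription factor, did, at 0.49 higher with a limma adjusted p of 0.000806, where 10.2% of all genes were called higher and 1.3% lower. Centred on its chromosome, Pax5 differed by 0.041 (limma adjusted p of 0.415). Differences that did not pass were 0.26 ± 0.18 (SE) at Xrcc6, 0.20 ± 0.12 at Xrcc4 and 0.19 ± 0.13 at Ung, which rests on 1 probe. All 3 were low in carcinoma WT1179. Xrcc6 read -1.22 and Xrcc4 -0.74 there, against -0.041 to 0.078 in the other carcinomas, and Ung read -0.74, against -0.178 to -0.048. Without WT1179 the differences were -0.037 at Xrcc6, 0.011 at Xrcc4 and 0.025 at Ung, a comparison chosen after seeing the data.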

How the data were processed

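The deposited scanner files hold processed intensity values in both colours, made by the authors with Agilent Feature Extraction 10.7 per the submitters' processing notes. Agilent's log10 ratio column and a series-wide table of log2 ratios, both deposited by the authors, were used as alternatives. Each spot's processed red signal was divided by its green signal and put on the log2 scale, outlier-flagged spots were dropped, and repeated spots were averaged per probe. All 370 member probes had values on all 12 arrays. On each array at least 99.856% of spots stood well above background for both dyes. The number of arrays limits precision.

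Locus and stretch values were compared with two-sided exact permutation tests and Benjamini-Hochberg adjustment. For probes and for genes, limma 3.58.1 (lmFit, eBayes; R 4.3.3) was run after each chromosome had been centred on its median. Segments came from penalised least squares (penalty factor 10). Segments were tested on simulated data of chromosome 12, with independent normal noise at the spread of WT1113. Losses of 30 probes at -0.5 were found in 100 of 100 cases, of 60 probes at -0.3 in 99, and of 10 probes at -0.5 in 0. Both ends were placed within 2 probes in 100 cases for 30 probes at -0.5. That count was 94 for 60 probes at -0.3 and 83 for 120 probes at -0.3. The simulated noise held no lasting differences between probes, so ends at these loci may be placed less well. The planned constant, J, D and V parts could not be placed in mm9, so equal stretches were used, a choice made after the data were seen. The probes named were those at the ends of lost segments and, per locus, up to 5 with the lowest difference among those called. From the gene list, members that passed and the 4 largest differences were named, except 1 that is not reported here. The high and the lowest probe were singled out after their values were seen. Members and lists were chosen with earlier results of these data known. Title numbers shared by both types were not taken as pairs, since no paired design is stated. Deviations of same-numbered tumours correlated at 0.108, -0.16, 0.125 and 0.017. These correlations cannot decide the question, as tumours of different types need not share changes even in 1 mouse.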

Additional observations from a re-analysis of the deposited data

Results flagged for a closer look

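Carcinoma KO1134 stood apart from the other 3 carcinomas at Igh, by Dixon's test at the 95% level. Its Igh mean was 0.252, against 0.022 to 0.044 in the others. The same held in stretch 1 (0.271, against 0.078 to 0.105), stretch 2 (0.236, against -0.015 to 0.003), stretch 3 (0.254, against -0.017 to 0.007) and stretch 5 (0.281, against 0.11 to 0.135). The stretches share these tumours, so the 5 values are not separate observations, and chance marks about 1 in 20 groups. Centred on the 2 Mb around the locus, KO1134 read -8e-05. The height was not confined to Igh. In KO1134 a segment of 532 probes at 0.24 ran from 113436334, before Igh, to the last probe of the chromosome, ending at 121252543.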

How the results depend on the processing

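Igh and Igk levels kept their direction and stayed past the threshold with the chromosome mean, the 2 Mb flanks, Agilent's log ratio, the series-wide table, normexp, flagged spots kept, bright probes alone, the median over probes, each tumour left out, WT1113 and WT1114 averaged or left out, and lymphomas of slide 3 alone. With lymphomas of slide 2 alone, the differences were -0.3005 at Igh, -0.2146 at Igk and 0.0721 at Igl, each with an adjusted exact p of 0.0571. Centred on the autosomal median they were 0.1569, -0.1765 and 0.1924, none past the threshold. Paired by title number (replicate block), they were -0.3825, -0.2153 and 0.06 over 4 pairs, with an exact sign-flip p of 0.125, the smallest 4 pairs allow. The Igl difference did not pass with the chromosome mean (0.0696), the flanks (0.0288), normexp (0.0558), the median over probes (0.0451), WT1113 and WT1114 averaged (0.043) or left out (0.0342, chosen after seeing the data), or lymphomas of slide 3 (0.0271). Leaving out each tumour moved it between 0.0428 and 0.0581, with loss of the call in 8 of 12 cases.

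Genotype and treatment differences passed under no alternative. With a tumour left out or WT1113 and WT1114 averaged, the splits were too few for any p under 0.05. Those alternatives could therefore not have passed. The KO minus WT difference turned sign at Igl on the flanks (0.0344) and at Igk (-0.0115) and Igl (0.0097) with WT1113 and WT1114 averaged. With each tumour left out it ran from -0.0713 to 0.0671 at Igk and from -0.0172 to 0.0139 at Igl, and the Fe-NTA minus untreated difference at Igh from -0.1126 to 0.1029. Igh minus Igl and Igk minus Igl were -0.2598 and -0.2138 with WT1113 and WT1114 averaged, and -0.2902 to -0.2216 and -0.2561 to -0.2076 with each tumour left out, at adjusted exact p-values of 0.0312 to 0.0625. Igh minus Igk ran from -0.0505 to 0.0102 and Igh minus Tcra/Tcrd from -0.0487 to 0.0. At Igl, 0 stretches passed on the flanks or without WT1113 and WT1114, and 0 to 2 with each tumour left out.

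Lost sequence at Igh passed without WT1405 (1124 kb, adjusted exact p of 0.0182) and lay between 909 and 1124 kb over the tumours left out. Centred on the autosomal median, the lymphomas had less lost sequence than the carcinomas, by -1199 kb at Igh and -165.9 kb at Igl. Igh was then lost in 7 lymphomas and 3 carcinomas and Igl in 0 lymphomas and 1 carcinoma. Under the other alternatives no carcinoma had a lost segment. Igh was lost in 4 lymphomas at a threshold of -0.4, in 6 at penalty 20 and in 7 otherwise, and Igk in 2 at -0.4, in 6 at -0.15 and in 5 otherwise.

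Counts of probes called lower depended most on the fit. They were 5, 0 and 0 at Igh, Igk and Igl with slide as a random block (0.151% of all probes). With the autosomal median as centre, 1, 5 and 0 were lower (1.49% of all) and 28, 0 and 2 higher (9.89%). They were 78 and 61 at Igh and Igk with lymphomas of slide 2 (8.94%), and 11, 8 and 0 with those of slide 3 (0.961%). The slide subsets were chosen after seeing the data. With title numbers 1 to 4, the replicate block gave 7, 1 and 0 (0.108%), and the same tumours without it 45, 6 and 0 (0.689%). WT1113 and WT1114 averaged left 9 at Igk (1.31% of all probes). With each tumour left out, the counts were lowest without KO1097, at 19 at Igh and 5 at Igk (0.74% of all probes). They were highest without WT1405, at 57 at Igh and 37 at Igk (1.32% of all probes). Igl had 0 to 1. The cause was not tested in any of these. Probe spacing and the number of carcinomas limit these comparisons.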
